A study of Drosophila sechellia with 6 samples.

Results

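Odorant binding proteins (OBPs) are small secreted proteins. In the sensilla of antennae, mouthparts and legs, support cells release them into the fluid around the sensory neurons, where they bind odorants, pheromones and tastants and can carry them or clear them. The receptors, Or, Gr and Ir proteins, sit in the neurons themselves. Several OBPs are also made outside the sense organs, among them OBPs of the male seminal fluid. *Drosophila sechellia* is a specialist on noni, the fruit of *Morinda citrifolia*, and the OBP genes *Obp57d* and *Obp57e* are known for their part in its host preference. The genes described here are all those of the deposited expression table whose name is Obp followed by digits. There are 51 of them among 17273 genes, including *Obp76a*, known as *lush* in *D. melanogaster*.

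RNA-seq of adult females of the strain 14021-0428.25 compared 2 diets. The noni flies had instant food with 1 g of rotten noni pulp for 24 h, and the control flies had the same food without noni for the same time. Both groups were young adults, from newly emerged up to 3 days old when put on the diets. They were reared on cornmeal medium at 20°C under 16 h of light and 8 h of dark, and each library pooled several whole flies. There were 3 libraries per diet, and the table gives 1 FPKM value per gene and diet (a fragment count corrected for the length of the transcript and the size of the library), pooled by the authors' program over the libraries. With no value of a single library, no SD, interval or test can be given, and every difference below is a difference between 2 pooled values whose replicate error is unknown.

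The table gives no depth of a library and no fragment count of a gene. Because the RNA is that of whole flies, a lower level can mean less RNA per cell or fewer cells of a type, which cannot be told apart. The matched yolk protein and eggshell genes, markers of females, were abundant and higher on noni. Of 7 names of yolk protein, fat body and eggshell genes, 6 were matched and 5 of these were higher, against 55.1% of all genes. The fat body genes on the list went both ways. *Lsp2* was higher, at 173 FPKM on noni and 31.1 FPKM on control food, a log2 ratio of 2.47. *Fbp1* was lower, at 58.8 FPKM on noni and 76.0 FPKM on control food. The summed level of the 6 genes was 48046 FPKM on noni and 27302 FPKM on control food. FPKM is a relative unit, and the part that this difference plays in the values of the OBP genes was not tested. Of 10 names of male accessory gland genes, 7 were matched. In both diets 6 of these were listed at 0, and the other, *Acp36DE*, was listed at 0 FPKM on noni and 0.0452 FPKM on control food.

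Levels of the OBP genes ranged over 3 groups. In both diets 14 of the 51 genes were listed at 0 FPKM, which is 27.5% of them, against 17.1% of all genes. Another 9 were above 0 in at least 1 diet but under 1 FPKM in both. The remaining 28 reached 1 FPKM in the higher diet. Of these, 27 were above 0 in both diets and have a ratio of noni to control, and they are the same 27 genes that the authors' program took as having enough alignments for its own test. The 28th is *Obp56a*. It was listed at 2.40 FPKM on noni and at 0 FPKM on control food, so it has no ratio, and the program did not test it.

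**Figure D1:**
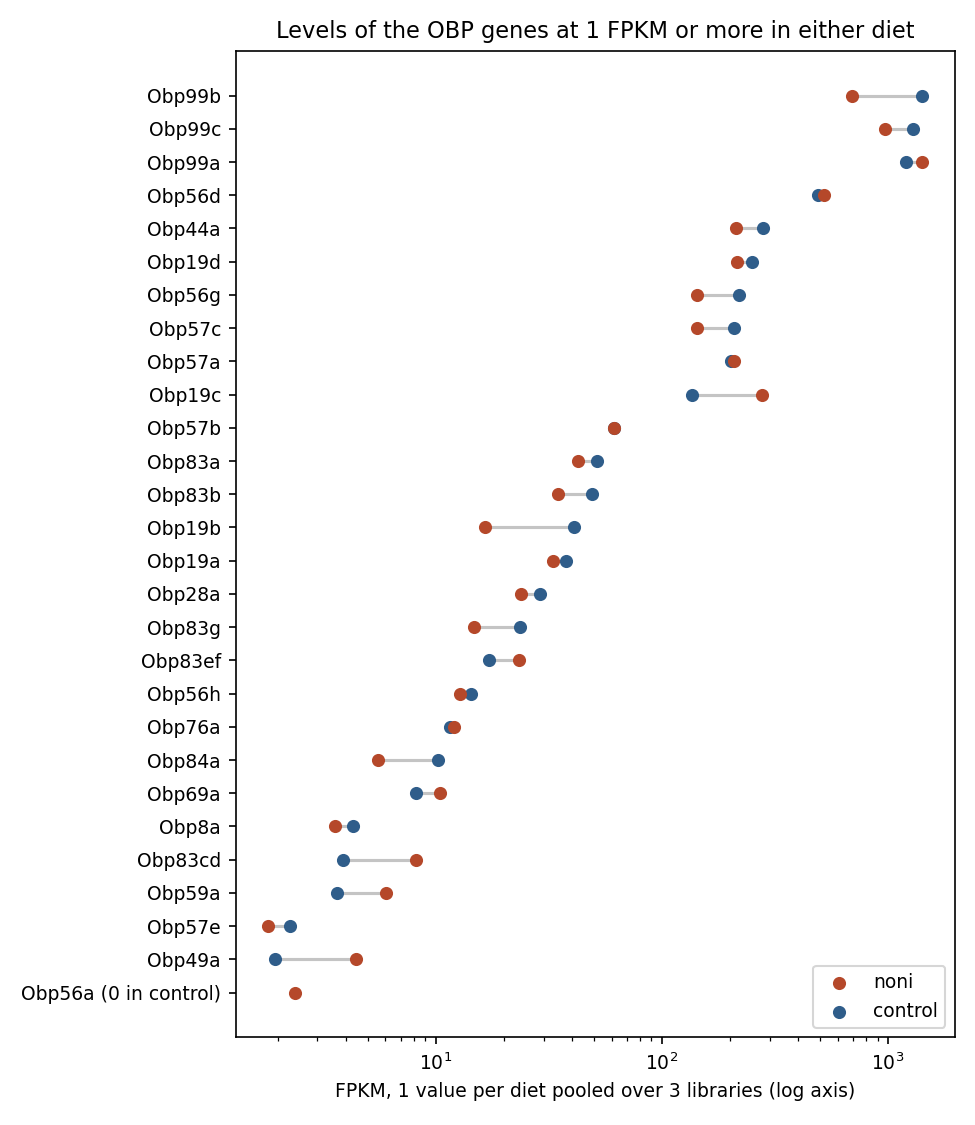
FPKM (log axis) of the 28 OBP genes at 1 FPKM or more in the higher diet, ordered by their level on control food. Each point is the value of 1 diet pooled over 3 libraries, red for noni and blue for control, and no error bar can be drawn. The values run from 1.82 FPKM, for *Obp57e* on noni, to 1415 FPKM, for *Obp99b* on control food, and for 22 of the 27 genes with points in both diets these lie within 2-fold of each other.

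Among the 27 genes with a ratio, 2 were lower on noni by at least 2-fold, *Obp19b* and *Obp99b*, and 3 were higher by at least 2-fold, *Obp19c*, *Obp83cd* and *Obp49a*. These are shares of 7.41% and 11.1%. *Obp19c* was under 2-fold (log2 ratio 0.98) once the median of all genes was subtracted, and *Obp49a* (0.89) and *Obp83cd* (0.91) were under it once 1 FPKM was added to both values. Over the 12043 genes of the table with a ratio and at least 1 FPKM in the higher diet, 4.20% were lower and 2.48% were higher by at least 2-fold. At 1.5-fold, 5 OBP genes (18.5%) were lower, against 10.2% of all genes, and 4 (14.8%) were higher, against 6.52% of all genes. Lower values of any size were found for 16 OBP genes (59.3%) and higher values for 11 (40.7%), while 44.9% of all genes were lower and 55.1% higher. For the OBP genes the log2 ratios had a median of -0.21 and quartiles of -0.45 and 0.16, against a median of 0.04 and quartiles of -0.22 and 0.26 for all genes. Counts of 2 to 5 genes are small, and no error stands behind a ratio, so nothing is read from their distance to the shares of all genes.

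The spread of the ratios over all genes depended on level. Between 1 and 10 FPKM in the higher diet, 9.67% of all genes were lower and 6.42% higher by at least 2-fold. Of the 5 OBP genes in this range, *Obp49a* and *Obp83cd* were higher by that much. Between 10 and 100 FPKM the shares were 2.08% and 1.14%, and *Obp19b* was 1 of 12 OBP genes there. Between 100 and 1000 FPKM they were 3.42% and 1.43%, and *Obp19c* was 1 of 7. Above 1000 FPKM they were 4.93% and 2.22%, and *Obp99b* was 1 of 3. The genes above 1000 FPKM were lower on noni as a whole, with a median log2 ratio of -0.24.

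**Figure D2:**
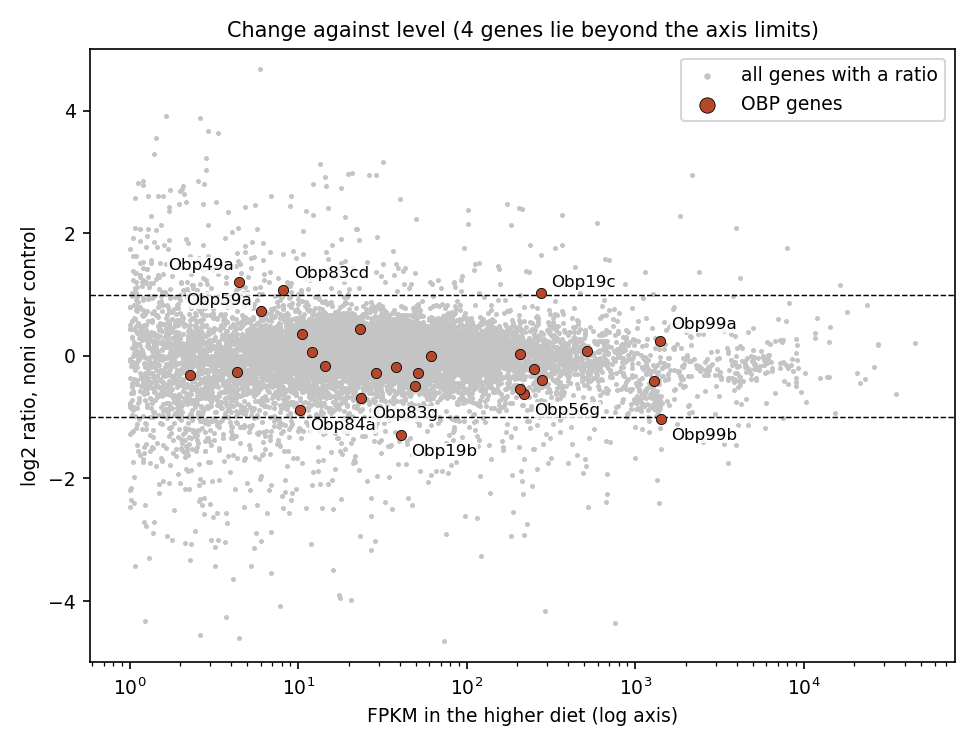
Log2 ratio of noni to control against the FPKM in the higher diet (log axis) for the 12043 genes with a ratio (grey) and the 27 OBP genes among them (red). Dashed lines mark a 2-fold difference, and 4 grey genes lie beyond the axis limits. The OBP genes beyond the dashed lines are *Obp49a*, *Obp83cd* and *Obp19c* above and *Obp19b* and *Obp99b* below.

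The 3 most abundant members belong to the Obp99 genes on scaffold 4 and were the only OBP genes above 1000 FPKM. They are of the Minus-C type, which lacks a pair of the conserved cysteines of a classic OBP. *Obp99b* (FBgn0263698, scaffold 4 from 4396229 to 4396678) was at 695 FPKM on noni and 1415 FPKM on control food. It was 2.04-fold lower, with a log2 ratio of -1.03, and ranked 441 among the 17273 genes by level on noni and 249 on control food. *Obp99c* (scaffold 4 from 4366312 to 4367221) was at 969 FPKM on noni and 1285 FPKM on control food, a log2 ratio of -0.41. *Obp99a* (scaffold 4 from 4352231 to 4352727) went the other way, with 1410 FPKM on noni and 1196 FPKM on control food and a log2 ratio of 0.24. The order of the 3 genes was turned round. On noni *Obp99a* was the first of all OBP genes and *Obp99b* the third, and on control food *Obp99b* was the first and *Obp99a* the third. The remaining gene of this name, *Obp99d*, was listed at 0 FPKM in both diets, although only 1397 bases separate it from *Obp99b*. The genes with a ratio within 10 kb of *Obp99b* were GM12807, GM12809, GM12227 and GM12810, which had log2 ratios from -0.30 to 0.15.

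The other Minus-C genes above 0 were lower on noni, each by less than *Obp99b* as a log2 ratio. *Obp44a*, in *D. melanogaster* a fatty acid carrier secreted by glia, was at 213 FPKM on noni and 281 FPKM on control food (log2 ratio -0.40). *Obp83g* was at 14.8 FPKM on noni and 23.7 FPKM on control food (log2 ratio -0.68). *Obp8a* was at 3.58 FPKM on noni and 4.32 FPKM on control food (log2 ratio -0.27). Of the 7 genes of this type, 6 had a ratio, of which 5 were lower and 1 higher on noni, with a median log2 ratio of -0.40. Of all genes with a ratio 44.9% were lower, and their median was 0.04. *Obp99a*, *Obp99b* and *Obp99c* lie above 1000 FPKM, where the median of all genes was -0.24. With so few genes, nothing is read from this about the Minus-C type. Their summed level was 3305 FPKM on noni and 4205 FPKM on control food.

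Summed over all 51 genes, the OBP level was 5113 FPKM on noni and 6060 FPKM on control food, a ratio of 0.844. This was 0.253% of the sum over all genes on noni and 0.281% on control food. The sum over all genes itself had a ratio of 0.938. *Obp99a*, *Obp99b* and *Obp99c* together made up 60.1% of the OBP sum on noni and 64.3% on control food. The 10 genes that were most abundant on control food made up 93.7% on noni and 93.8% on control food. The difference of the OBP sums was -947 FPKM, and that of *Obp99b* alone was -720 FPKM. *Obp99c* differed by -316 FPKM, while *Obp99a* and *Obp19c* were higher on noni by 215 and 140 FPKM. Without *Obp99b* the sums were 4418 FPKM on noni and 4644 FPKM on control food, a ratio of 0.951, so the difference of the sums rests largely on this 1 gene.

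**Figure D3:**
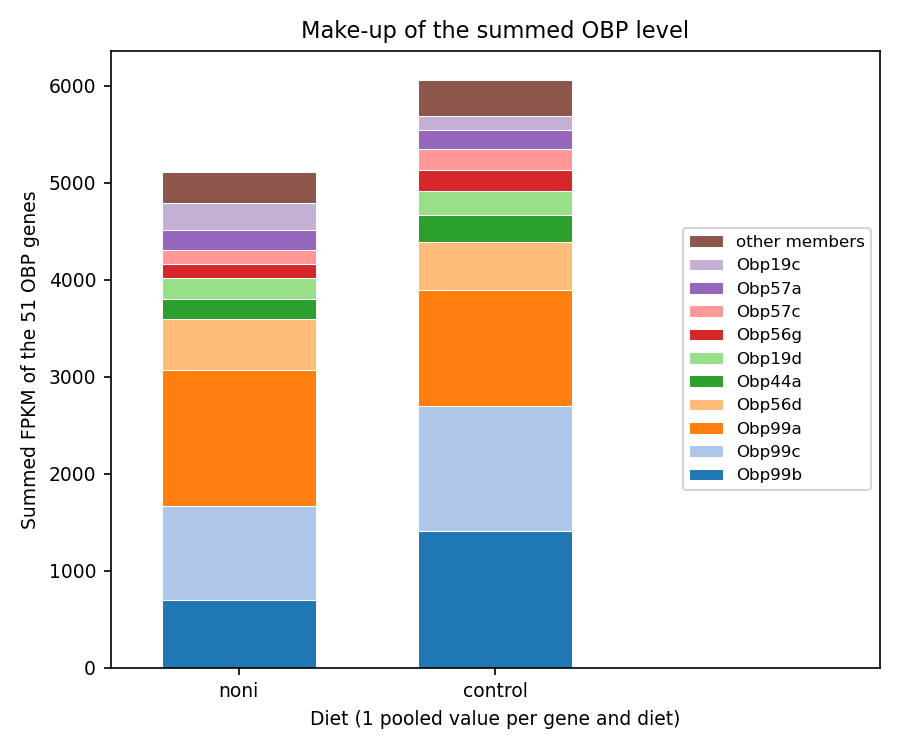
Summed FPKM of the 51 OBP genes on noni and on control food, divided into the 10 genes most abundant on control food and all other members. Each block is 1 pooled value with no error. The bars end at 5113 FPKM for noni and 6060 FPKM for control, and the block of *Obp99b* at the base is 695 FPKM on noni and 1415 FPKM on control food.

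The Obp19 genes lie side by side on scaffold 8 from 2480225 to 2485325, with no other gene of the table between them, and they held the lowest and the third highest ratio of the family. *Obp19b* (FBgn0177898, 2481239 to 2482276) is a gene of taste organs, needed in *D. melanogaster* to sense some amino acids. It was at 16.6 FPKM on noni and 40.8 FPKM on control food. That is 2.46-fold lower, a log2 ratio of -1.30, and 2.64% of all genes had a lower ratio. *Obp19c* (FBgn0177543, 2482748 to 2483307) begins 471 bases further on. It was at 276 FPKM on noni and 136 FPKM on control food. It was 2.03-fold higher, with a log2 ratio of 1.02, and it was number 5 among the OBP genes on noni and number 10 on control food. The outer genes of the group differed little between the diets. *Obp19a* was at 33.2 FPKM on noni and 37.8 FPKM on control food, and *Obp19d*, which is made in antennae and taste organs of *D. melanogaster*, at 216 FPKM on noni and 250 FPKM on control food. Their log2 ratios were -0.19 and -0.21. The 6 genes with a ratio that flank the group within 10 kb of *Obp19b* had log2 ratios from -0.20 to 0.22.

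Neighbours with opposite differences of this size were few in the table. Of 4752 pairs of neighbouring genes under 1 kb apart with a ratio for both, 17 pairs, 0.358%, had 1 gene lower and 1 higher by at least 2-fold, and *Obp19b* with *Obp19c* was 1 of them. The log2 ratios of this pair lay 2.32 apart. Ratios at least as far apart were found in 76 pairs, 1.60%. The pair was taken up because its ratios lay furthest apart among neighbouring OBP genes. Its place among all pairs is therefore a description of those same ratios and not a test. Once the median of all genes was subtracted, *Obp19c* (log2 ratio 0.98) was under 2-fold.

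The Obp83 genes form a first group of *Obp83a* and *Obp83b* on scaffold 6 and a second one of *Obp83cd*, *Obp83ef* and *Obp83g* further along the same scaffold. *Obp83cd* and *Obp83ef* each encode a double OBP domain. *Obp83cd* (FBgn0165800, scaffold 6 from 2035455 to 2036626) was at 8.18 FPKM on noni and 3.89 FPKM on control food, 2.10-fold higher with a log2 ratio of 1.07. *Obp83ef*, 169 bases further on, was at 23.3 FPKM on noni and 17.2 FPKM on control food (log2 ratio 0.43). Both genes with a double domain were thus higher on noni, while *Obp83g* at the other end of the group was lower. The log2 ratios within these 3 genes spanned 1.75. *Obp83a* and *Obp83b* encode the antennal proteins OS-F and OS-E. *Obp83a* was at 42.6 FPKM on noni and 51.6 FPKM on control food, and *Obp83b* at 34.9 FPKM on noni and 49.1 FPKM on control food, with log2 ratios of -0.28 and -0.49.

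In the list of genes of the antenna, the main olfactory organ, no member passed 2-fold. Of all genes with a ratio, 4.20% were lower and 2.48% higher by at least 2-fold. With so few genes on the list, nothing is read from this. Of 10 names on a list of OBPs abundant in the *D. melanogaster* antenna, 9 were matched, and all 9 had a ratio. On noni 5 were lower and 4 higher, while 44.9% of all genes were lower and 55.1% higher. The log2 ratios of the 9 genes lay between -0.88 and 0.73 around a median of -0.19. Their summed level was 688 FPKM on noni and 693 FPKM on control food. Most of this sum came from *Obp56d*, at 520 FPKM on noni and 491 FPKM on control food. The near equal sums thus say little about the other members of the list. *Obp84a* was the lowest of the list, with 5.57 FPKM on noni and 10.2 FPKM on control food. *Obp59a*, needed in *D. melanogaster* to sense humidity, was the highest, with 6.05 FPKM on noni and 3.65 FPKM on control food. *Obp76a*, which is needed for the response to the male pheromone cVA, was at 12.1 FPKM on noni and 11.6 FPKM on control food. *Obp28a*, an OBP of antennal sensilla, was at 23.8 FPKM on noni and 29.0 FPKM on control food. *Obp69a* was at 10.5 FPKM on noni and 8.17 FPKM on control food. In the table *Obp59a* and *Obp69a* each share their locus with another gene, GM15614 and GM24662, so reads may have been divided between overlapping genes.

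On a list of 4 taste genes, *Obp19b*, *Obp49a*, *Obp57d* and *Obp57e*, all but *Obp19b* were under 10 FPKM in both diets. The list leaves out *Obp19d*, made in antennae and taste organs of *D. melanogaster*, and *Obp56g*, also known from the labellum. *Obp19d* was at 216 FPKM on noni and 250 FPKM on control food. *Obp56g* was at 143 FPKM on noni and 219 FPKM on control food. The low levels on the list are therefore not read as those of taste OBPs in general. *Obp49a* (FBgn0175223, scaffold 1 from 6123791 to 6124546), which in *D. melanogaster* takes part in the suppression of sweet taste by bitter compounds, was at 4.46 FPKM on noni and 1.94 FPKM on control food. It was 2.30-fold higher, and its log2 ratio of 1.20 was the highest of the family. It was also the only 1 of 13 genes of the Plus-C type, which has extra conserved cysteines, to reach 1 FPKM. Of the other 12 genes of this type 8 were listed at 0 FPKM in both diets, namely *Obp47b*, *Obp58c*, *Obp58d*, *Obp85a* and, in the run of Obp50 genes on scaffold 1, *Obp50b*, *Obp50c*, *Obp50d* and *Obp50e*. *Obp93a* was at 0.787 FPKM on noni and 0.578 FPKM on control food, and *Obp58b* at 0.457 FPKM on noni and 0.199 FPKM on control food.

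The genes tied to host preference were at low levels in these whole flies. *Obp57e* (FBgn0084208, scaffold 1 from 13989702 to 13990177) was at 1.82 FPKM on noni and 2.27 FPKM on control food, a log2 ratio of -0.32. *Obp57d* (FBgn0084684, scaffold 1 from 13990528 to 13990988) was at 0.260 FPKM on noni and 0.745 FPKM on control food. It was under 1 FPKM in both diets, so no ratio is drawn from it. The other Obp57 genes lie in a separate group on the same scaffold and were far more abundant. *Obp57a* was at 208 FPKM on noni and 203 FPKM on control food, and *Obp57b* at 61.3 FPKM on noni and 61.2 FPKM on control food. *Obp57c* was at 142 FPKM on noni and 208 FPKM on control food, a log2 ratio of -0.55.

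OBPs known from the seminal fluid of *D. melanogaster* were mostly listed at or near 0, apart from *Obp56g* and *Obp8a*. Of 7 such genes, *Obp22a*, *Obp51a*, *Obp56f* and *Obp56i* were listed at 0 FPKM in both diets. *Obp51a* shares its locus in the table with GM21588. *Obp56e* was at 0.740 FPKM on noni and 0.622 FPKM on control food. *Obp56g*, also known from the labellum, was at 143 FPKM on noni and 219 FPKM on control food, with a log2 ratio of -0.62. The matched accessory gland genes were listed at or near 0. From which tissue the RNA of *Obp56g* came was not tested. Among the other Obp56 genes, *Obp56h* was at 12.8 FPKM on noni and 14.4 FPKM on control food. *Obp56a*, *Obp56b* and *Obp56c* lie together on scaffold 1 from 13099751 to 13103024, and all 3 were above 0 on noni and listed at 0 FPKM on control food. On noni they were at 2.40, 0.319 and 0.119 FPKM, and none of the 3 was tested by the authors' program. The only members listed at 0 on noni alone were *Obp50a*, at 0.287 FPKM on control food, and *Obp46a*, at 0.117 FPKM on control food. No share of all genes at 0 in 1 diet only is given here, and these levels are low. Nothing is therefore read from the members listed at 0 in 1 diet. Of the members on none of the lists, *Obp73a* was at 0.468 FPKM on noni and 0.968 FPKM on control food, and *Obp47a* was listed at 0 FPKM in both diets.

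By position, 33 of the 51 genes fell into 11 clusters, taken as members on 1 scaffold with under 20 kb between neighbours, and 18 stood alone. The clusters held 2 to 5 genes each. Genes on different scaffolds cannot share a cluster by this rule. *Obp56d*, *Obp56e* and *Obp56f* lie on scaffold 337 and the other Obp56 genes on scaffold 1. Whether scaffold ends divide a cluster was not tested. A cluster could hold genes of very different level. *Obp56d*, the fourth most abundant gene in both diets, shares its cluster with *Obp56f*, which was listed at 0 FPKM in both diets.

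For the neurons that OBPs serve, few names could be matched. *Orco* (GM10637), the co-receptor of the odorant receptors, was at 1.74 FPKM on noni and 2.80 FPKM on control food, a log2 ratio of -0.68. *Os-C* (GM10988), another gene of secreted antennal proteins, was at 128 FPKM on noni and 111 FPKM on control food, a log2 ratio of 0.21. These were the 2 genes matched among 10 names of other odour pathway genes, and neither passed 2-fold. Few genes do so, with 4.20% of all genes with a ratio lower and 2.48% higher by that much. The matched receptor genes, 5 of the Or, 5 of the Gr and 2 of the Ir family, were all under 1 FPKM in both diets, so the RNA of whole flies gave no ratio for them.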

How the data were processed

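RNA of whole adult females was measured in 3 noni and 3 control libraries, grouped by the diet in their titles. The authors selected poly(A) RNA, checked reads with FastQC, mapped them with Bowtie2 (which does not split reads at introns) to dsec_caf1 and ran Cuffdiff which scaled the libraries geometrically and corrected for library size and sequence bias. The FPKM values in the deposited table are pooled over the libraries of a diet. Its columns of fold changes, test statistics, p-values and q-values hold the authors' own comparison and were not used.

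Log2 ratios of noni to control were computed for genes above 0 FPKM in both diets with at least 1 FPKM in the higher one, and members past 2-fold or 1.5-fold were counted beside all genes. The log2 step, with no pseudocount, leaves out genes at 0. Starts in the table count from 0 (47.5% of locus lengths divide by 3 on that count and 26.8% on the other), and positions are printed counting from 1. *D. melanogaster* names of other genes came from the ortholog column of a shortened supplementary copy. Python 3.11.15, numpy 2.4.6, pandas 2.3.3 and matplotlib 3.10.9 were used, and the counting was tested on simulated data.

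Every member could be named. Given in full were members past 2-fold, the 6 most abundant, the members of their clusters, and *Obp57d* and *Obp57e*. The members, lists and rules were chosen with earlier results of these data known. Protein sequences were not analysed here. Alternatives were other pseudocounts, minimum levels, centring, tested genes only, and cluster gaps.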

Additional observations from a re-analysis of the deposited data

How the results depend on the processing

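No paired analysis was possible because the table holds 1 pooled value per diet, and for the same reason no library could be left out. Without a minimum level, 4 of 32 members were lower by at least 2-fold, against 5.67% of all genes. *Obp57d* and *Obp73a*, both under 1 FPKM, were then counted. At a minimum of 10 FPKM in the higher diet, 1 of 22 members, *Obp19c*, was higher by at least 2-fold, against 1.25% of all genes. By at least 1.5-fold 1 member was higher, against 4.30% of all genes. The other members that were higher by this much are below that level. The other counts stayed within 1.5 times under every alternative, and the median log2 ratio within 0.1. Centring on the median of all genes (0.04) took *Obp19c* below 2-fold, since its log2 ratio of 1.02 became 0.98. This left 2 of 27 members higher by that much, against 2.33% of all genes. Adding 1 FPKM to both values also left 2 members, then *Obp56a* and *Obp19c* of 28, against 2.17% of all genes. The log2 ratio of the summed level was -0.25. It was -0.39 without *Obp99a*, the most abundant member as the mean of both diets, -0.086 without *Obp99a*, *Obp99b* and *Obp99c*, and -0.072 without *Obp99b*, an alternative chosen after seeing the data. Among the 27 single log2 ratios, centring reversed 2, that of *Obp57a* (-0.0098) and of *Obp57b* (-0.041). Replicate error is unknown, and the table gives no fragment count of any gene, so no counting limit is given.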
